A study of Mus musculus with 2 samples.

Results

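The genes described are those of the cytosolic ribosomal proteins (RPs), taken as every gene expression feature whose symbol is Rpl or Rps followed by a digit, together with Rplp0, Rplp1, Rplp2 and Rpsa and without the Rps6k kinase genes. This rule found 93 members among 21951 features of the deposited count matrix. Of these, 77 are canonical subunit genes, 46 of the large and 31 of the small subunit, 6 are pseudogenes by their symbol, and 10 are paralogs or other genes whose name matches. All 77 canonical genes and 87 of the 93 members had at least 200 UMIs (unique molecular identifiers, each counting 1 captured RNA molecule) over the 6 groups of endothelial cells (ECs). The 6 members under that minimum were Rps18-ps5, Rpl39l, Rps23rg1 and Rpl3l, and Rpl10l and Rpl36-ps4 with 0 UMIs each.

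Cells of the heart and liver of mouse pups of 3 genotypes were marked with antibody hashtags, sorted by FACS as CD31+ MbTomato+ cells and loaded together as 1 10x library, so that each genotype and tissue is 1 hashtagged sample. By the labels, the pups were C57BL/6 mice with Cdh5-CreERT2, which is active in ECs, received 40 mg/kg of 4-hydroxytamoxifen on postnatal day 3 and were collected 3 days later at P6 to P7. The study's methods also list mixed backgrounds for its mice, without saying which of them these pups had. The iSuRe-Cre groups carry the first reporter allele, which keeps expressing Cre after induction, and the iSuRe-HadCre groups the newer allele, in which Cre is expressed only transiently. The study used these cells to follow deletion of Notch1, whose floxed allele the labels do not list, and the labels give 1 genotype, Cdh5-CreERT2 + iHadSuRe-Cre, for the whole pool, so that the alleles of the control are not known here. The number of pups behind each group is not given in the sources used here.

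Ribosomal proteins are made in equal numbers in a growing cell, because each ribosome needs 1 copy of nearly every one of them, and their mRNAs are among the most abundant of any cell. Many of these mRNAs begin with a C followed by a run of pyrimidines (C or T in the DNA), the TOP motif, through which mTORC1 and the RNA-binding protein Larp1 control their translation together. ECs of the first postnatal week are dividing and form new vessels, which requires ribosome production.

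The first transcribed bases are shown for 4 small subunit genes to which the results below return: 3 begin with the motif in the RefSeq annotation, and Rps3a1, the canonical gene farthest from the others in each comparison with iSuRe-Cre, does not. Each window has 30 bases before and 20 bases from the annotated start (RefSeq, GRCm38.p6), printed 5′ to 3′ on the strand of the gene, with the pyrimidine run at the start in capitals. All 4 genes lie on the minus strand, in chr17:33955646-33955695 (Rps18), chr3:90213629-90213678 (Rps27), chr4:86857348-86857397 (Rps6) and chr3:86142649-86142698 (Rps3a1).
Rps18: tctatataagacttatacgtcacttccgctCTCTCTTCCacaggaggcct
Rps27: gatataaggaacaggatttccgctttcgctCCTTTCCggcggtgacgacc
Rps6: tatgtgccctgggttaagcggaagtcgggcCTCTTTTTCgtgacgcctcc
Rps3a1: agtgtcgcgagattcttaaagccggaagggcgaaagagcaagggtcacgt
A C exactly at the annotated start followed by at least 4 bases that are each C or T, searched on the strand of the gene only, was found in 12 of the 57 canonical genes with a start in the table (21.1%), against 673 of 27025 genes (2.49%). The 12 were Rpl14, Rpl15, Rpl28, Rpl35, Rpl38, Rplp2, Rps10, Rps15a, Rps18, Rps21, Rps27 and Rps6. With the run allowed to begin up to 10 bases to either side, the shares were 54.4% of the canonical genes and 30.8% of all genes.

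Cells were kept with more than 2000 and fewer than 75000 gene UMIs, more than 500 genes, and mitochondrial and haemoglobin shares below 5% each, which left 14348 barcodes. Of these, 2391 reached the limit of exactly 1 hashtag, and 1988 of those were ECs by a Cdh5 level above 0.9 (on a natural log scale, after 1 is added to its UMIs per 10000). The EC groups held from 54 cells (control liver) to 858 (iSuRe-Cre liver) and from 624048 to 9341120 UMIs. Notch1 was at 138 and 160 CPM (UMIs of a gene per 1e+06 UMIs of the group) in the control groups and between 12.6 and 30.7 CPM in the iSuRe groups. WPRE, a sequence of the reporter, was at 562 and 396 CPM in the heart and liver of control, 63.5 and 105 CPM with iSuRe-Cre and 1055 and 1070 CPM with iSuRe-HadCre. The summed endothelial markers were at 4378 to 5557 CPM in all 6 groups, but sinusoidal markers, which define most liver ECs, were at 3342 CPM in iSuRe-Cre liver against 855 CPM in iSuRe-HadCre liver, and lowest of the 3 in control liver. Each group is 1 sample, so differences have no replicate check and were not tested. Intervals are exact 95% intervals that cover counting error only and hold nothing of the spread between animals.

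Among heart ECs, RP genes took up 17.9% of all UMIs in the control group, 19.2% with iSuRe-Cre and 13.8% with iSuRe-HadCre. Among liver ECs the share was 15.3% for control, 18.8% for iSuRe-Cre and 14.9% for iSuRe-HadCre. The iSuRe-Cre groups were thus the highest of both tissues, and the iSuRe-HadCre heart group was the lowest of the 6. Single cells varied more than the groups did. In iSuRe-HadCre heart the share per cell had a median of 12.3% and ran from 4.17% to 21.1% between the 5th and 95th percentiles, while control heart had a median of 17.3% (9.27% to 23.9%) and iSuRe-Cre heart one of 18.9% (12.9% to 25.9%). The liver medians were 13.9% for control, 18.9% for iSuRe-Cre and 14.0% for iSuRe-HadCre. The ranges of cells overlapped between all groups. Cells below 10% made up 29.6% of iSuRe-HadCre heart, 23.7% of iSuRe-HadCre liver and 7 of 54 control liver ECs, but 7.09% in control heart, 4.78% in iSuRe-Cre liver and 0.92% in iSuRe-Cre heart.

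**Figure D1:**
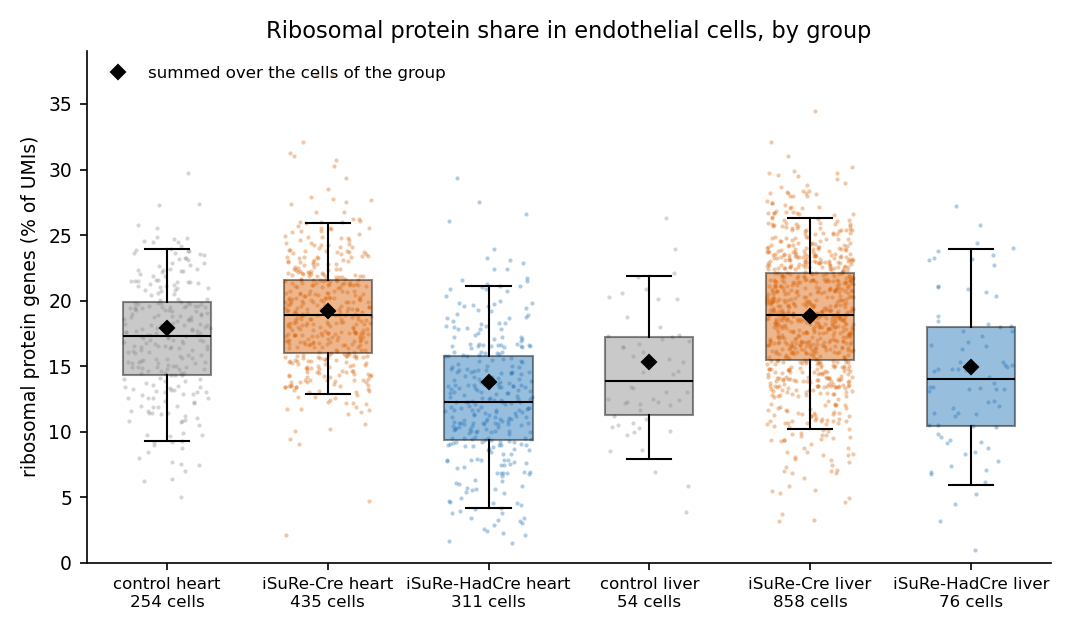
Share of UMIs from RP genes in each EC (points) of the 6 groups, in percent. Boxes give the quartiles and whiskers the 5th and 95th percentiles over cells, and diamonds the share summed over the cells of a group. The diamonds lie between 13.8% (iSuRe-HadCre heart) and 19.2% (iSuRe-Cre heart), and the cells of all groups overlap.

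Relative to control heart, the RP share of iSuRe-Cre heart ECs was 1.07 (95% interval 1.07 to 1.08) and that of iSuRe-HadCre heart ECs 0.773 (0.770 to 0.776). Relative to control liver, iSuRe-Cre liver ECs were at 1.23 (1.22 to 1.24) and iSuRe-HadCre liver ECs at 0.973 (0.964 to 0.981). The last value rested on 76 and 54 cells whose medians differed by 0.0513 percentage points, and it changed sides of 1 with the hashtag minimum, to 1.04 at 10 UMIs and 1.02 at 50 UMIs. Between the alleles, the iSuRe-HadCre share was 0.720 (0.718 to 0.723) of that of iSuRe-Cre in heart and 0.790 (0.785 to 0.795) in liver. The size of these liver ratios depended on how hashtags were assigned. With cells called by HTODemux, where control liver held 230 cells, iSuRe-Cre to control liver was 1.05 and iSuRe-HadCre to iSuRe-Cre liver 0.901. With a hashtag minimum of 10 UMIs they were 1.12 and 0.935. Between tissues, liver was at 0.854 of heart for control, 0.980 for iSuRe-Cre and 1.07 for iSuRe-HadCre, so that the order of the tissues was not the same in the 3 genotypes. The balance of the subunits differed little between groups. The large subunit genes had 1.24 to 1.27 times the UMIs of the small subunit genes in 5 groups and 1.32 times in iSuRe-Cre heart.

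The level of single members spanned more than an order of magnitude. Over the mean of the 6 groups, the highest canonical genes included Rpl41, which encodes the smallest protein of the ribosome, at 4823 CPM, Rps24 at 3994, Rpl23 at 3973 and Rps20 at 3828 CPM. The lowest were Rpl13a at 147 CPM, Rpl4 at 523, Rps10 at 570, Rpl7a at 935 and Rpl14 at 975 CPM. CPM counts molecules and is not scaled by transcript length. Many members have processed copies elsewhere in the genome, and how reads that match several copies were assigned is not given in the sources used here, so the order of levels between members is uncertain.

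Members were compared between groups as ratios of CPM, and a ratio above 1.5 or below 1/1.5 was counted as past the fold limit, over 9742 features with at least 200 UMIs. In iSuRe-Cre against control heart ECs the canonical genes had a median ratio of 1.08, against 0.958 over all compared features, and 71 of 77 were above 1. None was higher past the limit, where 7.77% of all compared features were, and 1 (Rps3a1) was lower, where 9.18% were. The highest ratios were those of Rps2 (1.29, 1.26 to 1.32) and Rps18 (1.23), both of the small subunit, and Rpl26 (1.26) of the large subunit. Low ratios were those of Rps3a1 (0.388, 0.375 to 0.401) and Rps21 (0.860, 0.839 to 0.882). In liver, iSuRe-Cre against control gave a median of 1.23, against 0.952 over all features, with 76 of 77 genes above 1. Again no canonical gene was higher past the limit (12.9% of all features) and 1 was lower (15.6% of all features), which was again Rps3a1 (0.591, 0.557 to 0.627). Rps2 (1.43), Rpl8 (1.41) and Rps6 (1.40), the target of the S6 kinases, were the highest, and after Rps3a1 the lowest were Rpl23a (1.05) and Rps27 (1.07).

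In iSuRe-HadCre against control heart ECs all 77 canonical genes were below 1, with a median of 0.779 against 1.09 over all features. Past the limit were 0 higher (11.7% of all features) and 1 lower (2.66% of all features), Rpl29, a large subunit gene, at 0.630 (0.602 to 0.658). Rps18 (0.668, 0.641 to 0.695) and Rpl32 (0.683) came next, while Rplp1 of the ribosomal stalk (0.954), Rps26, which lines the channel where mRNA leaves the small subunit (0.946), and Rpl26 (0.90) were closest to control. In liver the median was 0.970 against 1.00 over all features, 29 genes were above and 48 below 1, and none passed the limit in either direction, where 13.6% of all features were higher and 13.4% lower. The ratios ran from 0.824 for Rpl12, 0.833 for Rpl36a and 0.839 for Rpl29 to 1.08 for Rplp0, 1.10 for Rpl41 and 1.21 for Rpl8.

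Between the alleles, iSuRe-HadCre against iSuRe-Cre heart ECs had 16 canonical genes lower past the limit (4.68% of all features) and 1 higher (19.9% of all features). The median was 0.725 against 1.15 over all features. Rps18 (0.542, 0.524 to 0.561), Rpl29 (0.548) and Rpl32 (0.589) were lowest, Rps26 (0.886) and Rps21 (0.882) were closest to 1, and Rps3a1 stood apart at 2.04 (1.97 to 2.12). In liver the median was 0.784 against 1.05, with 1 gene lower (Rpl32 at 0.666, 11.3% of all features) and 1 higher (Rps3a1 at 1.65, 13.3% of all features). Rps6 (0.674) and Rpl29 (0.676) were next to Rpl32, and Rps21 (0.922) and Rpl31 (0.916) were highest after Rps3a1. Comparisons of the same tissue share their groups, so these ratios are not independent of each other. In all 6 comparisons most members lay in a narrow band around the median of the canonical genes, as the plot of the ratios shows.

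**Figure D2:**
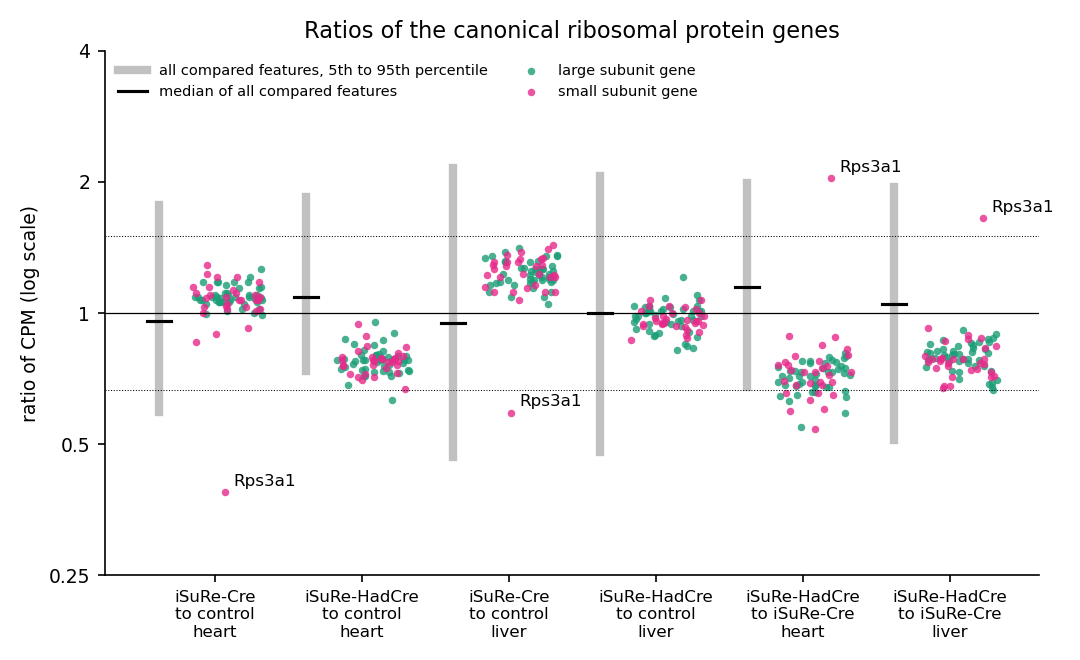
Ratio of CPM between EC groups for the 77 canonical RP genes (points, large and small subunit in different colours) in the 6 comparisons, on a log axis. Grey bars give the 5th to 95th percentiles and black ticks the median of all compared features, and dotted lines the fold limit of 1.5. The members form a compact cloud with a median from 0.725 to 1.23, and Rps3a1 lies outside it where iSuRe-Cre is compared.

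Rps3a1, which encodes a protein of the small subunit (chromosome 3, 86137940 to 86142702, minus strand of GRCm38), was at 2168 CPM in heart ECs of control, 841 CPM in those of iSuRe-Cre and 1717 CPM in those of iSuRe-HadCre. In liver it was at 1952, 1153 and 1903 CPM in the same order. It was low in both iSuRe-Cre groups, and the exact Poisson intervals of the other 4 groups, from 1672 CPM upwards, lay above theirs. As a share of the RP UMIs of each cell, over cells with at least 500 of them, its median was 0.344% (iSuRe-Cre heart), 0.469% (iSuRe-Cre liver) and between 1.17% and 1.24% in the other 4 groups. In iSuRe-Cre heart the middle 90% of cells ran from 0.157% to 0.945%, and the 5th percentile of control heart was 0.697%. iSuRe-Cre liver cells were spread more widely, from 0.18% to 1.38%. Within cells that pass a gate on capillary markers the gene was at 838 CPM in iSuRe-Cre (374 cells) and 2197 CPM in control heart (240 cells). In liver the same gate gave 1556 CPM in iSuRe-Cre (177 cells) and 1502 CPM in control (16 cells), while iSuRe-Cre liver cells of the sinusoidal gate (194 cells) had 938 CPM. As a share of the summed RP UMIs, the liver capillary cells had 0.796% from Rps3a1 with iSuRe-Cre and 1.14% in control, and the heart capillary cells 0.432% and 1.21%. The gene was thus low among the RP genes in both tissues, but its liver CPM in this gate was not.

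Outside these groups, Rps3a1 was at 2018 CPM in the 5585 ECs with no hashtag at its limit and at 2073 CPM in free RNA, taken from 24194 barcodes of 10 to 100 UMIs. Gated cells of other types that carried the iSuRe-Cre liver hashtag had 1.26% of their RP UMIs from Rps3a1 in 11 hepatocytes, 0.877% in 11 mesenchymal cells and 0.713% in 52 neutrophils. Over all cells of these gates the shares were 0.998%, 1.27% and 1.11%. The 10 mesenchymal cells with the iSuRe-HadCre liver hashtag had 1.33%. The 7 compared genes within 1 Mb of Rps3a1 had ratios from 0.619 to 1.62 in iSuRe-Cre against control heart, with 1 of them higher and 1 lower past the limit (7.77% and 9.18% of all compared features). In that comparison, 96 of 9742 features had a lower ratio than Rps3a1, and in iSuRe-Cre against control liver 1003 of 9742 had. In iSuRe-HadCre against iSuRe-Cre heart, 5 of the 7 neighbours were higher and 0 lower past the limit (19.9% and 4.68% of all compared features). In liver 0 were higher and 1 lower (13.3% and 11.3%). The annotation holds near-identical copies of Rps3a1, named Rps3a2 and Rps3a3, with 99.5% and 98.9% identity to it over the shorter transcript. Neither copy is among the features of the count matrix, unlike those of Rps18 below. How reads from them were treated is not given, so the assignment of Rps3a1 reads is uncertain.

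Rps18, whose start is shown above, was at 1973 CPM in heart ECs of control, 2431 CPM with iSuRe-Cre and 1317 CPM with iSuRe-HadCre, and at 1641, 2227 and 1587 CPM in liver. Its pseudogene copies were instead highest in the iSuRe-HadCre groups. The rule for named genes does not take them, and they were picked with their values known. Rps18-ps6 (chromosome 13, 97760072 to 97760632, minus strand) had 7 UMIs in control heart, 9 with iSuRe-Cre and 142 with iSuRe-HadCre, which are 2.31, 1.08 and 45.8 CPM. In liver it had 2, 20 and 32 UMIs, or 3.20, 2.14 and 46.9 CPM. Both iSuRe-HadCre groups were thus far above the other 4, with ratios to control of 19.8 (9.37 to 50.2) in heart and 14.6 (3.73 to 126) in liver. Against iSuRe-Cre heart the ratio of 42.2 was the highest of the 9742 compared features. Rps18-ps6 reached the UMI minimum for these features only through its iSuRe-HadCre counts, so this rank depends in part on that filter. A UMI of Rps18-ps6 was found in 31.8% of iSuRe-HadCre heart ECs (exact binomial 95% interval 26.7 to 37.3) and 31.6% of iSuRe-HadCre liver ECs (21.4 to 43.3). In the other groups a UMI was found in 1.57% to 3.7% of cells. At the depth of these cells a share without a UMI does not show that the transcript was absent.

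Rps18-ps5 (chromosome 13, 28257528 to 28258134, plus strand), which had 168 UMIs over the 6 groups, was also highest in the iSuRe-HadCre groups, at 20.0 CPM in heart and 17.6 in liver, against 2.31 to 8.01 CPM elsewhere. Its interval for the ratio to control held 1 in liver (0.719 to 7.95). Over the shorter transcript of each pair, the annotated pseudogenes had 96.8% (Rps18-ps5) and 96.6% (Rps18-ps6) identity to Rps18, with 18 and 19 edits. Their counts and those of Rps18 therefore cannot be taken as independent. Summed over the 3, the ratio to control heart was 0.699 (0.672 to 0.727) in iSuRe-HadCre, close to the 0.668 of Rps18 alone, as the copies gave 204 of 4292 UMIs. In other cells of the library Rps18-ps6 was at 0.301 CPM in 1086 mesenchymal cells, 2.17 CPM in free RNA (2 UMIs) and 8.79 CPM in ECs with no hashtag at its limit. The 8 compared genes within 1 Mb of it had ratios from 0.849 to 1.37 in iSuRe-HadCre against control heart.

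**Figure D3:**
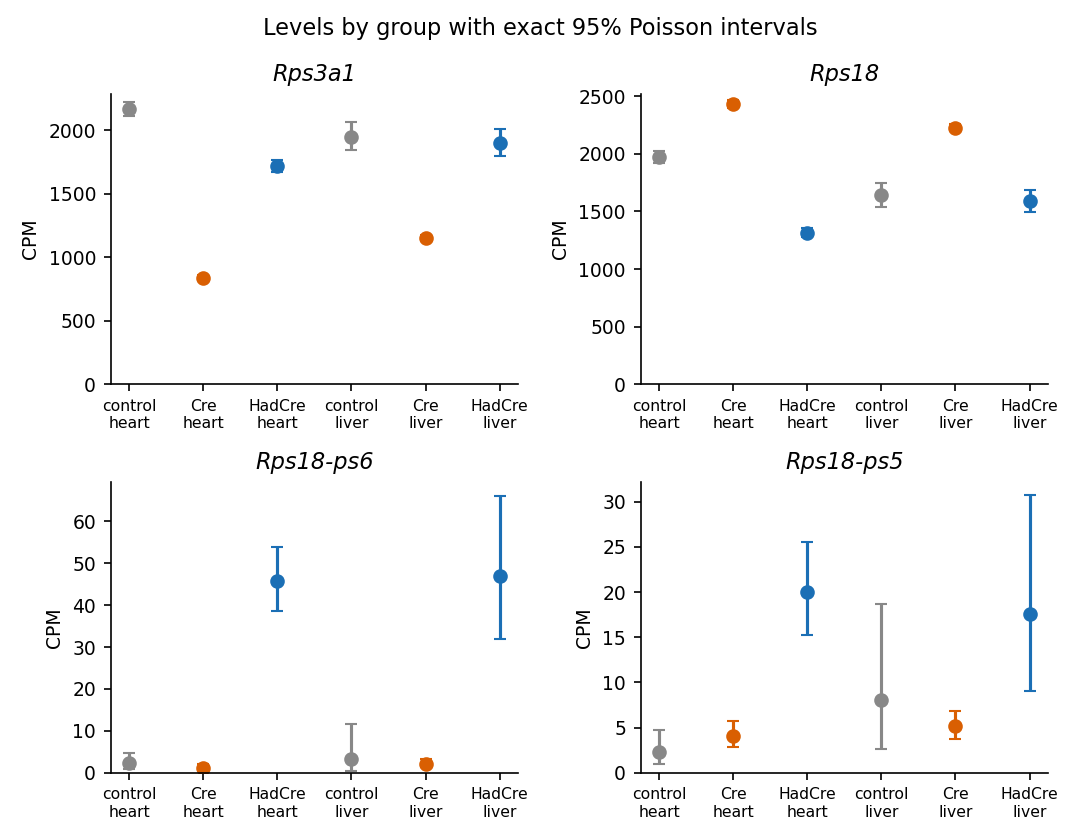
CPM of Rps3a1, Rps18 and the pseudogenes Rps18-ps6 and Rps18-ps5 in the 6 EC groups, with exact 95% Poisson intervals and axes that start at 0. Rps3a1 is low in both iSuRe-Cre groups (841 and 1153 CPM), and Rps18-ps6 is high in both iSuRe-HadCre groups (45.8 and 46.9 CPM).

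Among the paralogs, Rps27l is a paralog of Rps27 that is known as a target gene of p53. It differed most from the canonical genes in iSuRe-Cre heart and iSuRe-HadCre liver. Its heart levels were 467 CPM for control, 817 CPM for iSuRe-Cre and 402 CPM for iSuRe-HadCre, and its liver levels 367, 469 and 476 CPM. Against control heart, iSuRe-Cre was at 1.75 (1.65 to 1.85), above all 77 canonical genes, and iSuRe-HadCre at 0.861 (0.797 to 0.929). In liver both iSuRe groups were above control, at 1.28 (1.12 to 1.47) and 1.30 (1.09 to 1.54), where the canonical medians were 1.23 and 0.970. Rps27 itself was at 0.923 (iSuRe-Cre) and 0.779 (iSuRe-HadCre) of control heart. Rpl22l1, the paralog of Rpl22, had the most UMIs of the paralogs (16078) with ratios to control from 0.854 to 0.979. Rpl36al was near the medians of the canonical genes, at 1.13 (iSuRe-Cre) and 0.822 (iSuRe-HadCre) of control heart and 1.29 and 0.958 in liver. Rpl7l1 was at 1.29 (1.11 to 1.50) of control heart with iSuRe-Cre and 0.989 with iSuRe-HadCre. Rps19bp1, which encodes a partner of Rps19 and not a ribosomal protein, was at 1.38 and 1.03, and Rps27rt, a copy of Rps27 with 86.6% identity, at 0.764 and 0.679. Paralogs known from striated muscle (Rpl3l) and testis (Rpl10l) had 4 and 0 UMIs in all 6 groups together.

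Some ribosomal proteins are left out by the symbol rule. Fau, which is made as a fusion with a ubiquitin-like protein, was at 0.978 of control heart with iSuRe-Cre and 0.830 with iSuRe-HadCre, and at 1.37 and 1.07 in liver. Rack1, the scaffold protein on the small subunit, was at 1.05 and 0.755 in heart and at 1.15 and 0.917 in liver.

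Other genes of protein synthesis were followed in lists. The 18 genes of translation elongation and other TOP mRNAs had a median ratio of 0.852 in iSuRe-HadCre against control heart, with 16 of 18 below 1 and none past the limit in either direction, where 11.7% of all compared features were higher and 2.66% lower. Eef2 (0.767), Eif3f and Eef1a1, which encode translation factors, were lowest, and Npm1, a nucleolar protein, was highest at 1.12. In iSuRe-Cre against control heart the median was 1.03, from 0.777 for Eif4b to 1.15 for Eef1b2. For liver it was 1.13 (iSuRe-Cre) and 0.977 (iSuRe-HadCre). These medians lay between those of the canonical genes and of all features in heart. The 28 compared genes of ribosome biogenesis (of 30) had a median of 1.22 in iSuRe-Cre heart, with 27 above 1 and 1 higher past the limit (Pes1 at 1.52, 1.16 to 2.01), ahead of Nop56 (1.48), where 7.77% of all compared features were higher. In iSuRe-HadCre heart their median was 1.04, near that of all features, with 1 gene past the limit in each direction, Nat10 at 1.51 and Nop2 at 0.643, whose intervals both held 1 (11.7% of all compared features were higher and 2.66% lower). Against control liver, 5 of the 28 were higher and 0 lower with iSuRe-Cre (12.9% and 15.6% of all compared features), and 3 were higher and 3 lower with iSuRe-HadCre (13.6% and 13.4%). Of these genes of ribosome assembly, 16 were above and 12 below 1 in iSuRe-HadCre heart, where all canonical RP genes were below 1. The difference between the lists was not tested.

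Of the 16 genes through which mTORC1 acts on translation, 2 were lower past the limit in iSuRe-Cre against control heart, where 9.18% of all compared features were, the mTOR inhibitor Deptor at 0.341 (0.234 to 0.496) and Tsc1 at 0.657 (0.481 to 0.904). Eif4ebp1, which encodes a repressor of cap-dependent translation, was the highest at 1.44 and was the lowest of the list in iSuRe-HadCre heart at 0.713 (0.586 to 0.866). Its heart level was 83.2 CPM for control, 120 CPM for iSuRe-Cre and 59.3 CPM for iSuRe-HadCre, and in liver it was at 80.1, 116 and 51.2 CPM, so that the groups had the same order in both tissues. Rps6kb1, the S6 kinase gene, was at 0.928 (iSuRe-Cre) and 1.31 (iSuRe-HadCre) of control heart. The median of the list was 0.919 and 1.09 in heart, close to those of all features. The 76 compared genes of mitochondrial ribosomal proteins, a list added after the results were seen, had medians of 1.15 (iSuRe-Cre) and 0.993 (iSuRe-HadCre) against control heart.

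Depth, the share of long genes and the makeup of the groups differed along with the RP share. The median cell had 16379 UMIs in iSuRe-Cre heart and 7322 to 9100 in the other groups. In bands of UMIs per cell, iSuRe-HadCre heart was at 12.7% in the shallowest band (2000 to 4000 UMIs), below that in the middle bands (11.6% at 8000 to 16000 UMIs) and at 17.4% in the deepest (16000 UMIs and more), control heart at 15.8%, 15.5%, 17.5% and 19.0%, and iSuRe-Cre heart at 18.8%, 18.4% and 19.5% in the 3 deeper bands. The order of the 3 heart groups was therefore the same in each band with all of them. iSuRe-Cre liver stayed between 18.6% and 19.1% in all bands, above both other liver groups in each band that these had.

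**Figure D4:**
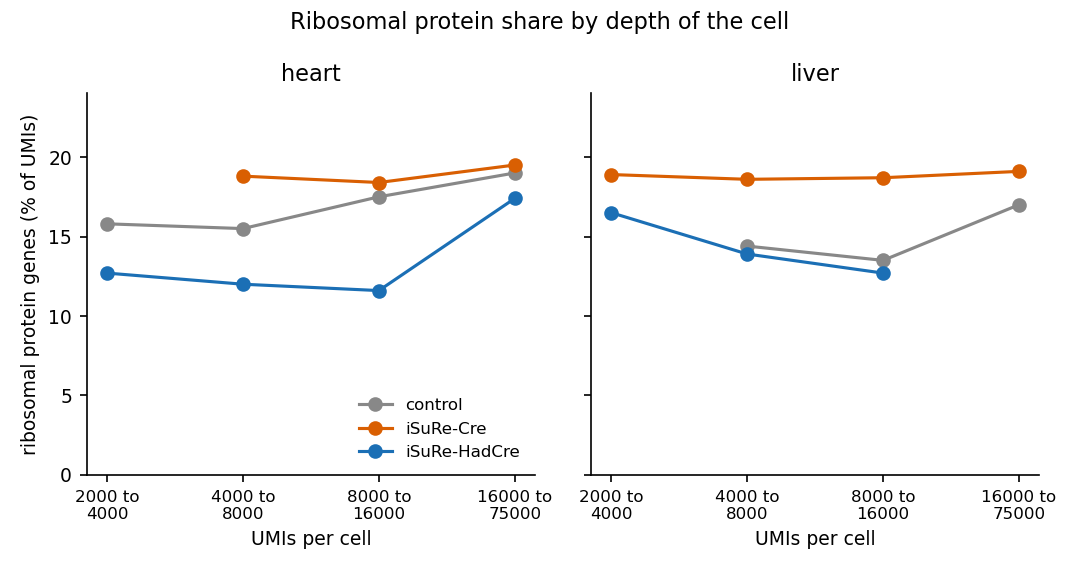
RP share of UMIs summed over cells in bands of UMIs per cell, for the 3 genotypes in heart and liver ECs, with bands of fewer than 10 cells left out. In heart, iSuRe-Cre lies above control and control above iSuRe-HadCre in each band that holds all 3, and the iSuRe-HadCre share is highest in the deepest band (17.4%).

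Genes longer than 100 kb gave 18.3% of UMIs in heart ECs with iSuRe-HadCre, 14.9% in those of control and 12.3% with iSuRe-Cre, and 17.3%, 18.3% and 15.5% in the same order in liver. Over the cells of a group, the RP share and the long-gene share had Pearson correlations from -0.8 (311 iSuRe-HadCre heart cells) to -0.54 (435 iSuRe-Cre heart cells). Both are shares of the same UMIs, so part of a negative relation is built in, and whether reads in introns were counted is not given in the sources used here. With the long genes left out of the total, the ratio to control heart was 0.804 for iSuRe-HadCre and 1.04 for iSuRe-Cre. The part of long genes in the difference was not tested. The neutrophil markers summed to 3409 CPM in iSuRe-Cre liver ECs and to 35.5 to 596 CPM in the other groups, and hepatocyte markers to 443 and 394 CPM in the iSuRe-Cre groups against 43.9 to 75.2 CPM. Their part in the RP share was not tested either. In the capillary gate, the ratios in heart were 1.07 for iSuRe-Cre and 0.767 for iSuRe-HadCre against control. In liver the same gate gave 1.48 for iSuRe-Cre and 1.16 for iSuRe-HadCre against 16 control cells, which turns the direction of the latter. In the iSuRe-Cre liver group, sinusoidal cells had 0.838 (0.834 to 0.842) of the RP share of capillary cells.

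Dividing cells did not differ from the others in 1 direction. Cells with at least 2 UMIs of Mki67 and Top2a, which mark proliferation, had an RP share of 19.3% against 17.5% in cells without any in control heart, 18.4% against 19.7% in iSuRe-Cre heart, and 15.2% against 12.7% in iSuRe-HadCre heart. By the median over cells, control heart gave 19.4% against 16.9% and iSuRe-Cre heart 18.0% against 19.4%. For iSuRe-HadCre heart these medians were 11.5% and 12.3%, opposite to its summed shares. In iSuRe-Cre liver the summed shares were 19.6% and 18.1%. The proliferating cells were deeper, with medians of 20111 against 7994 UMIs in control heart.

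Across the library, cells were gated by the UMIs of fixed markers, with Cdh5 at 0 UMIs for all types but ECs. The RP share was lowest in 142 neurons (14.4%) and in 3701 ECs (16.9%), followed by neutrophils (18.5%) and neural progenitors or glia (19.7%). Mesenchymal cells (21.5%), hepatocytes (21.6%), smooth muscle cells (23.7%), chondrocytes (23.9%) and macrophages (24.9%) lay above, and keratinocytes reached 28.5% over 181 cells. Gates of 18 to 37 cells gave 27.1% in cardiomyocytes, 29.5% in B lymphocytes and 32.2% in erythroid cells, whose globin-rich stages had been left out by the haemoglobin limit. The ranges of single cells of neighbouring types overlapped, and by the median over cells neutrophils were at 23.4% and smooth muscle cells at 21.2%, so that these places depend on the measure. Median depth ran from 3651 UMIs (neutrophils) to 53040 UMIs (erythroid cells) and did not follow the order, as hepatocytes at 3780 UMIs and mesenchymal cells at 14775 UMIs had nearly the same share. Long genes gave 18.7% of UMIs in neurons and 4.08% in erythroid cells. Free RNA held 16.9% RP UMIs, the same as ECs of this gate. The 5585 ECs taken by Cdh5 alone and with no hashtag at its limit were at 18.7%, with a median of 20.5% over cells. Their summed share lay above that of neutrophils, so the place of ECs in the order depends on how they are selected. A hashtag at its limit was carried by 1604 of the 3701 ECs and 13 of 18 B lymphocytes. It was carried by 36 of 1086 mesenchymal cells, 7 of 181 keratinocytes and 5 of 142 neurons. The tissue and sort of cells without one are not known here, so this order is a description.

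**Figure D5:**
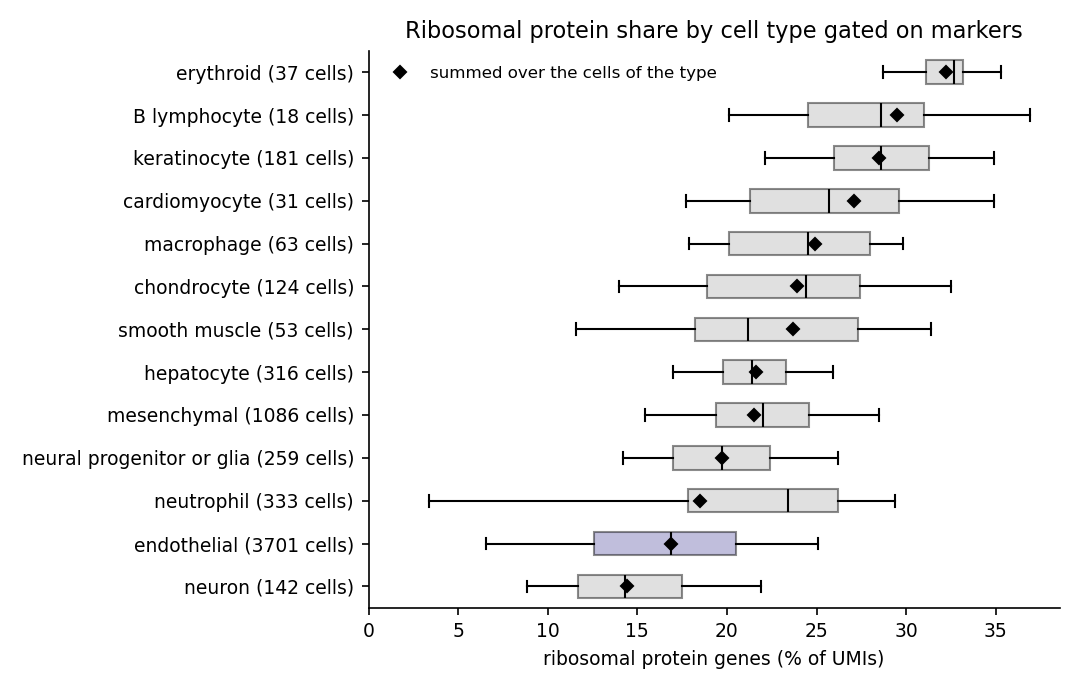
RP share of UMIs per cell for 13 cell types gated on fixed markers, in percent. Boxes give the quartiles, whiskers the 5th and 95th percentiles over cells and diamonds the share summed over cells. Summed shares run from 14.4% (neurons) to 32.2% (erythroid cells), and the neutrophil gate has the widest range.

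The neutrophil gate was the most uneven, from 3.37% to 29.4% between the 5th and 95th percentiles. Its 62 cells with a UMI of Elane or Mpo, genes of early granules in immature cells, had an RP share of 26.2%. The other 271 cells had 14.8% when summed and a median of 22.0% over cells. All 271 had Ltf, Camp or Ngp, which mark later granules, but the gate required this of cells without Elane and Mpo. Whether the 62 cells had these genes as well is not given here. Within the gate, the 52 cells with the iSuRe-Cre liver hashtag were at 7.93%.

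The makeup of the RP pool was similar between the 10 types with at least 50 cells. For a canonical gene, the highest share of all RP UMIs was a median of 1.27 times the lowest, from 1.09 times for Rps23 to 1.82 times for Rps26. Rps26 made up 1.04% of RP UMIs in ECs and 1.36% to 1.89% in the other 9 types, with the highest share in keratinocytes. Rpl29 went the other way, at 0.932% in ECs and 0.522% to 0.736% elsewhere. Rps3a1 was also lowest in ECs, at 0.752% against 0.993% to 1.36%, and this EC gate holds the iSuRe-Cre cells. Rpl23a was at 0.946% in neurons and 0.569% in neutrophils, and Rpl5, which binds the 5S RNA and, free of the ribosome, inhibits Mdm2, at 0.897% and 0.564% in the same types. The paralog Rpl22l1 made up 0.334% of RP UMIs in ECs and 0.575% in hepatocytes.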

How the data were processed

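Gene and hashtag reads of 1 pooled 10x library (2 samples in the labels, on the same barcodes) were used. Its assigned hashtags mark heart and liver cells. Per the labels and the study's methods, the authors aligned them with Cell Ranger 7.1.0 to GRCm38 (Ensembl 98) plus the transgenes, and the counts of UMIs they deposited are raw and cover all barcodes. Hashtags were matched to groups by their number in the labels. A cell was assigned when 1 hashtag had at least 25 UMIs (140 for hashtag 302, that of iSuRe-Cre liver) and all others were below their limits. The 186 barcodes with several hashtags were left out, and no other doublet caller was run. UMIs were summed per group, since cells are not replicates. Intervals are exact Poisson, binomial or conditional. Gates required 5 UMIs and 3 detected genes of a marker list and 3 times the UMIs of every other list. Named genes were the 5 highest and 5 lowest canonical genes, the 3 highest and 3 lowest ratios of each comparison, paralogs with at least 200 UMIs, Fau, Rack1 and similar genes outside the symbol rule, the 5 canonical genes that varied most between types, and the extremes of the other lists, of which examples are given. Results of some genes that this rule names are not reported here. Members, lists, hashtag limits and gates were chosen with earlier results of these data known, and the mitochondrial ribosomal protein list after these results were seen. Another 7 hashtag or multiplexing features, which the labels tie to no group, were left aside. Gene positions came from GENCODE M21, which matched 21779 features by ID. Ratios and their intervals were tested on simulated counts. Alternatives covered the EC and hashtag criteria, quality limits, depth, scaling and free RNA. Python 3.11.15, scipy 1.17.1, R 4.3.3 and Seurat 5.3.0 were used.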

Additional observations from a re-analysis of the deposited data

Results flagged for a closer look

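For 5 members described here the ratio to control lay above 1 in one tissue and below 1 in the other, with both counting intervals clear of 1. The difference between the tissues was not tested. In iSuRe-Cre these were Rps21 (0.860 in heart and 1.16 in liver) and Rps27 (0.923 and 1.07). In iSuRe-HadCre they were Rpl41 (0.782 and 1.10), Rps27l (0.861 and 1.30) and Rpl8 (0.850 and 1.21). The share of all compared features that did so is not given here. The canonical medians also differed between heart and liver, at 1.08 and 1.23 for iSuRe-Cre and 0.779 and 0.970 for iSuRe-HadCre. Taken as shares of all RP UMIs, the 5 members each had ratios on the same side of 1 in both tissues. Rps27, for example, was at 0.861 and 0.873, and Rpl8 at 1.10 and 1.24.

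The 5585 ECs with no hashtag at its limit, which belong to no group and enter none of the comparisons, had an RP share of 18.7%, above the 17.9% and 15.3% of the control groups, at a median depth of 4220 UMIs.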

How the results depend on the processing

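In the planned settings the RP share ratio stayed above 1 for iSuRe-Cre against control and below 1 for iSuRe-HadCre against control heart and against iSuRe-Cre. Only iSuRe-HadCre against control liver crossed 1, and the cause was not tested. Values follow in the order iSuRe-Cre to control heart, iSuRe-HadCre to control heart, iSuRe-Cre to control liver, iSuRe-HadCre to control liver, iSuRe-HadCre to iSuRe-Cre heart and liver. They were 1.06, 0.810, 1.12, 1.04, 0.763 and 0.935 with a hashtag minimum of 10 UMIs, and 1.07, 0.763, 1.27, 1.02, 0.715 and 0.804 with 50 UMIs. HTODemux singlets gave 1.08, 0.818, 1.05, 0.946, 0.760 and 0.901. Cells of 3000 to 10000 UMIs gave 1.17, 0.712, 1.32, 0.985, 0.608 and 0.746, and the mean over cells 1.11, 0.733, 1.29, 0.993, 0.658 and 0.769. With WPRE above 0.5 in the iSuRe groups the values were 1.09, 1.22, 0.947, 0.709 and 0.776 without the second, and with 10% of UMIs subtracted as free RNA 1.08, 0.749, 1.26, 0.693 and 0.769 without the fourth. The last 5 values but that of iSuRe-HadCre to control liver were 0.797, 1.10, 0.743 and 0.880 with at least 1 Cdh5 UMI, and all 5 were 0.767, 1.21, 0.929, 0.714 and 0.766 with haemoglobin below 1%. A mitochondrial limit of 10% gave 1.251 and 0.988 for the liver ratios to control. In settings chosen after seeing the data, the capillary gate gave 0.767, 1.48, 1.16, 0.716 and 0.782 for the last 5, where control liver held 16 cells, and a total without genes over 100 kb 1.04, 0.804, 1.19, 0.961, 0.773 and 0.807.

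The number of canonical genes past the limit was 1, 1, 1, 0, 17 and 2. At a lower fold limit of 5/4 it was 3, 61, 35, 0, 71 and 46. Of these, 61, 70 and 45 were lower in the second and the last 2 comparisons, or 79.2%, 90.9% and 58.4% of the canonical genes against 9.03%, 12.7% and 2045 of 9742 of all features, and 34 were higher in the third (44.2% against 22.5%). With CPM scaled to the UMIs outside the RP genes it was 3 for iSuRe-HadCre to control heart, 34 in heart and 8 in liver for iSuRe-HadCre to iSuRe-Cre. No paired analysis was possible because each group is 1 hashtagged sample, and for the same reason no replicate could be left out. Control and iSuRe-HadCre liver held 54 and 76 cells, the fewest of the 6 groups.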
